A study of Arabidopsis thaliana with 12 samples.

Results

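Transcripts of 4 cell wall endoglucanases of subclass B of glycoside hydrolase family GH9, GH9B8 (AT2G32990), GH9B11 (AT2G44560), GH9B12 (AT2G44570) and GH9B16 (AT4G38990), were compared in Arabidopsis thaliana plants after 30 min of light and in dark-adapted plants. They were taken because the platform annotation gives each of them a probe that names exactly 1 gene, which holds for 692 of the 3439 probes on the array, and each had 1 such probe. A further 6 probes list several genes, GH9B genes among them, and no gene was named from those. The light group held 6 samples of wild-type plants of the Landsberg ecotype that received 30 min of light at the end of 12 h of darkness, and the dark group 6 samples of the same wild type after 12 h of darkness alone. The labels name no tissue, plant age, transgene or other agent for either group. Without samples that stayed dark through those 30 min, the effects of light and of time cannot be told apart.

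GH9 enzymes are endoglucanases: they cut glucan chains such as cellulose at internal bonds. Plants carry membrane-anchored members, of which KORRIGAN is needed for cellulose synthesis, and secreted members such as those of subclass B, which act in the wall outside the cell. Secreted endoglucanases of plants are known for wall loosening and remodelling during cell growth, fruit softening and organ shedding. GH9B11 and GH9B12 are neighbours on the chromosome in the TAIR10.1 gene table, next to GH9B10, and GH9B16 lies next to GH9B17. Closely related neighbours can bind the same probe, so a signal may include RNA of a related copy.

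The deposited numbers are linear intensities, and what they are relative to is not given in the sources used here. The highest intensity was 100 on every dark array and lay between 65.7 and 77.6 on the light arrays, which these sources do not explain. The median intensity of an array lay between 0.666 and 0.687 in light and between 0.443 and 0.491 in the dark, and the array totals lay between 3532 and 3666 in light and between 3247 and 3321 in the dark. To set this array-wide difference aside, the values were quantile-normalized, those under the 5th percentile of an array's positive values were raised to it (the floor), and log2 was taken. After normalization the median log2 difference of all probes, light minus dark, was 0.01, against 0.44 on the values as deposited. Each difference of a gene below is thus relative to the other probes of the array, and the value as deposited stands beside it. Log2 differences as deposited were taken without normalization but with the floor set on the deposited values. Deposited intensities are given without the floor. Of 7 photosynthesis genes with a probe of their own, looked at as markers of green tissue, LHB1B2, PSBW and PSAN were brighter than at least 95.5% of probes on every array and PSBY brighter than at least 82.0%. PSB27, SBPASE and PRK lay lower, brighter than 33.6% to 82.0% of probes on the light arrays and 20.1% to 89.9% on the dark arrays.

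After normalization GH9B8, GH9B11 and GH9B16 were lower in light and GH9B12 did not pass the test, so 3 of 4 were called lower and 0 higher (limma adjusted p under 0.05 over all probes). On the values as deposited 1 of the 4 passed, GH9B8, which was lower. Of all 3439 probes, 29% were called lower and 23.6% higher after normalization, and 13.9% lower and 49.9% higher as deposited. Of the 692 probes that name 1 gene, 24.4% were called lower and 24.4% higher after normalization. With consecutive sample numbers averaged before the fit, 2 of the 4 genes were called lower and 0 higher, beside 19.7% and 15.1% of all probes. The median log2 difference of the 4 genes was -0.61 after normalization, against 0.01 for all probes, and -0.14 as deposited, against 0.44 for all probes. In RNA of whole samples, fewer cells that express a gene and less RNA per cell cannot be told apart.

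GH9B8 was the one of the 4 genes whose fall was called on the values as deposited as well as after normalization. Its deposited intensity in light was 0.151 at the lowest, 0.197 at the median and 0.228 at the highest, against 0.180, 0.361 and 0.400 in the dark. Of the dark samples, number 4 at 0.180 lay within the range of the light samples and number 2 at 0.230 just above it, and the other 4 dark samples were well apart, from 0.360 upwards. The group means were 0.191 ± 0.0271 in light and 0.317 ± 0.0893 in the dark (SD, n = 6 each).

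The normalized difference of GH9B8, light minus dark, was -1.12 ± 0.21 (log2 ± SE), a light over dark ratio of 0.462 (limma adjusted p = 0.000778). As deposited the difference was -0.66 ± 0.19 (log2 ± SE, limma adjusted p = 0.00792). Light was lower than dark in 6 of 6 equally numbered samples after normalization, by as little as -0.16 for number 4 and by as much as -1.53 for number 6. Over all probes, the deviations of consecutive numbers (1 and 2, 3 and 4, 5 and 6) from their group mean correlated at 0.36 to 0.47 in light and at 0.42 to 0.60 in the dark. For GH9B8 itself, numbers 3 and 4 lay far apart in the dark, at 0.362 and 0.180 as deposited. The normalized differences averaged -1.15, -0.83 and -1.37 over the 3 sets of consecutive numbers.

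The GH9B8 signal lay close to the low end of the scale in light. It was brighter than a median of 10.5% of probes on the light arrays and 36.3% on the dark arrays, and 1 of the 6 light values was at the floor. With the floor raised to the 10th percentile the log2 difference was -0.79 (limma adjusted p = 0.00403). All 6 light values, brighter than 8.6% to 12.3% of probes with zeros counted, lay under that floor, as did dark sample 4, at 11.7%. The value of -0.79 is thus set by the floor in light. The size of the fall therefore depends on the floor, while its call held with the floor at the 2.5th, 5th and 10th percentiles. At the 10th the spread of the light values is removed, so the call there is no separate support.

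**Figure D1:**
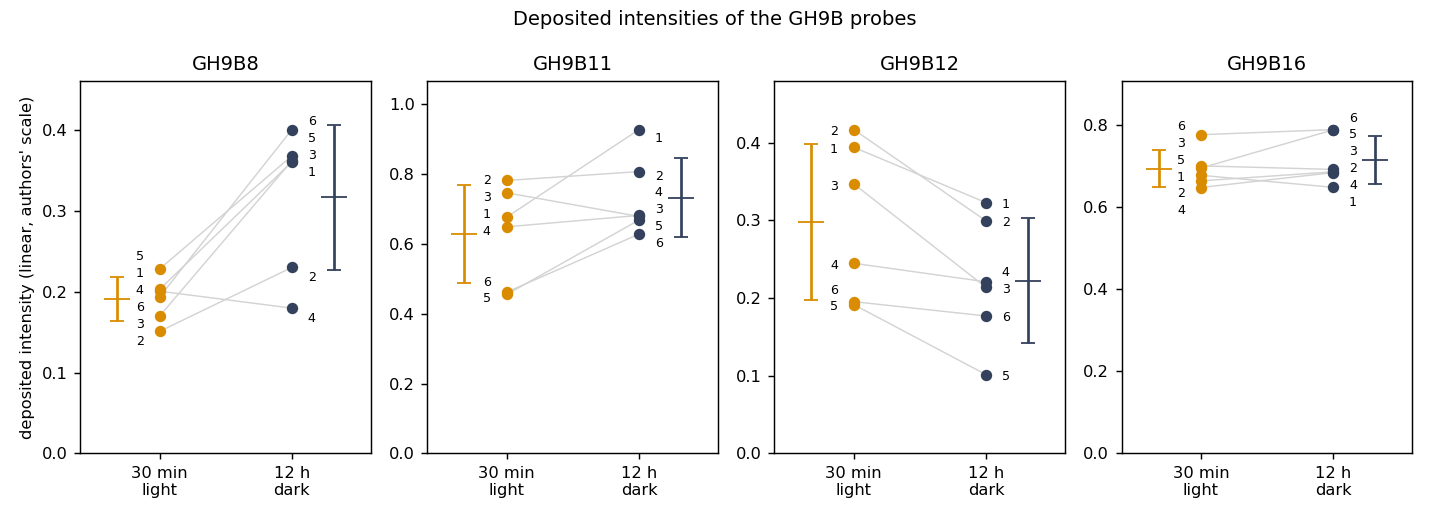
Deposited intensities (linear, vertical axes from 0 with a scale of their own per gene) of the 4 genes in each sample of 30 min light (orange) and 12 h dark (blue). Digits give the sample numbers, grey lines join equal numbers, and bars show the mean and SD of 6 samples. GH9B8 averaged 0.191 in light and 0.317 in the dark, whereas for GH9B16 the groups lie on top of each other, at 0.693 and 0.714.

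GH9B11 had a deposited intensity of 0.455 at the lowest, 0.663 at the median and 0.782 at the highest in light, against 0.628, 0.680 and 0.927 in the dark. The groups overlapped: light samples 5 and 6, at 0.455 and 0.462, lay below every dark sample, and the other 4 light samples lay among the dark ones. The means were 0.628 ± 0.140 in light and 0.732 ± 0.113 in the dark (SD, n = 6 each). As deposited the difference was -0.24 ± 0.16 (log2 ± SE) and was not called (limma adjusted p = 0.202).

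After normalization the groups of GH9B11 no longer overlapped, with log2 values from -1.38 to -0.59 in light and from -0.42 to 0.10 in the dark. How many of all probes have groups without overlap was not counted. The difference was -0.70 ± 0.15 (log2 ± SE), a light over dark ratio of 0.616 (limma adjusted p = 0.00209). It averaged -0.72 for numbers 1 and 2, -0.41 for 3 and 4, and -0.97 for 5 and 6. With consecutive numbers averaged before the fit, which leaves 3 values a group, the limma adjusted p was 0.0516 and the call was lost. With these sets also as a block it was 0.0141.

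GH9B16 had the smallest relative spread of the 4, with a coefficient of variation of 6.49% in light and 8.30% in the dark. Its deposited intensity in light was 0.647 at the lowest, 0.686 at the median and 0.776 at the highest, against 0.648, 0.689 and 0.788 in the dark. Both groups covered nearly the same range, with means of 0.693 ± 0.0450 in light and 0.714 ± 0.0593 in the dark (SD, n = 6 each), and light was lower in 4 of 6 equally numbered samples. The difference as deposited was -0.041 ± 0.086 (log2 ± SE, limma adjusted p = 0.690).

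Relative to the rest of the array, whose median was higher in light as deposited, GH9B16 was lower in light. The normalized values ran from -0.89 to -0.57 in light and from -0.36 to -0.12 in the dark. The normalized difference was -0.51 ± 0.08 (log2 ± SE), a light over dark ratio of 0.700 (limma adjusted p = 0.000102). It was almost the same in the 3 sets of consecutive numbers, at -0.51, -0.49 and -0.54, and was called with these averaged (limma adjusted p = 0.0215). The 3 scalings that align the arrays gave -0.51, -0.58 and -0.51 (quantile normalization, centred medians and cyclic loess). The call of GH9B16 thus depends on whether the array-wide difference is kept.

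GH9B12 had a deposited intensity of 0.192 at the lowest, 0.296 at the median and 0.417 at the highest in light, against 0.101, 0.217 and 0.323 in the dark. Light was higher in 6 of 6 equally numbered samples as deposited, but samples of different numbers varied widely in both groups: numbers 1 and 2 averaged 0.405 in light and 0.311 in the dark, and numbers 5 and 6 averaged 0.193 in light and 0.139 in the dark. The means were 0.298 ± 0.10 in light and 0.223 ± 0.0810 in the dark (SD, n = 6 each). The log2 difference was 0.40 ± 0.27 (SE) as deposited and was not called (limma adjusted p = 0.203).

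After normalization GH9B12 was lower in light in 4 of 6 equally numbered samples and higher in 2. The difference was -0.06 ± 0.28 (log2 ± SE), with a 95% interval of -0.67 to 0.55 (limma adjusted p = 0.867). With the sample number as a block the standard error was smaller, at 0.11, the interval ran from -0.31 to 0.19, and the gene was still not called (limma adjusted p = 0.651). In the dark, sample 5 was at the floor.

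**Figure D2:**
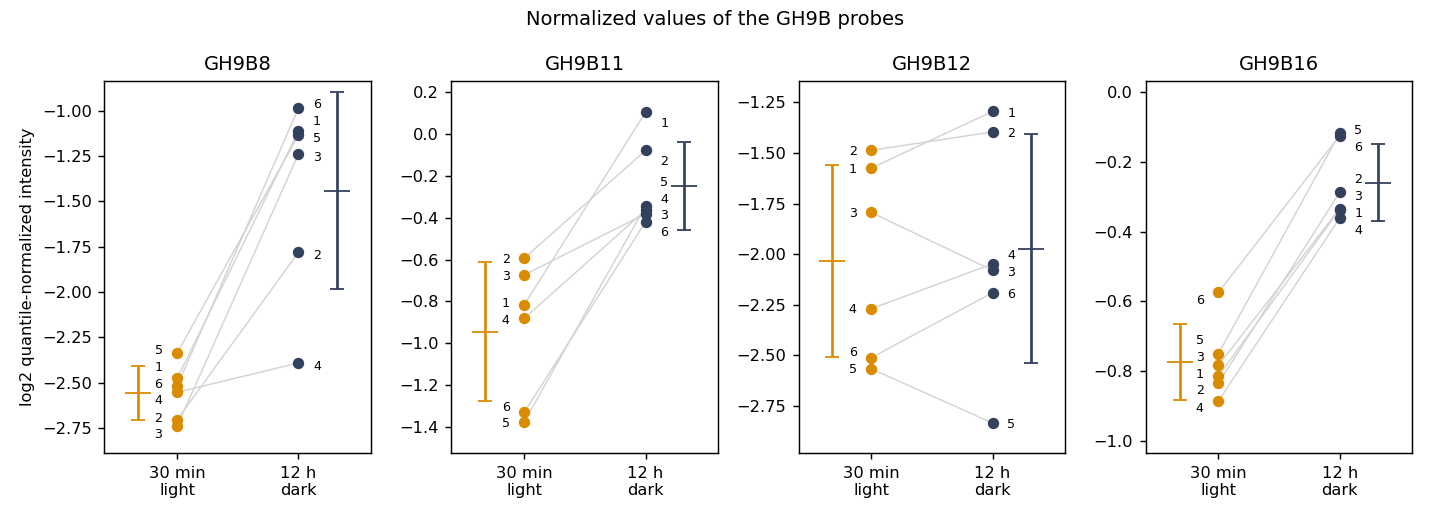
Log2 quantile-normalized intensities of the 4 genes in each sample of 30 min light (orange) and 12 h dark (blue), with sample numbers, lines joining equal numbers, and the mean and SD of 6 samples. After normalization the groups do not overlap for GH9B11 and GH9B16, GH9B8 overlaps only through dark sample 4, and GH9B12 spreads over the same range in both groups. How many of all probes do not overlap was not counted, while 29% of them were called lower and 23.6% higher. As deposited, all 4 genes overlap.

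The 4 genes were then compared in their response. For each of the 6 pairs of genes the log2 value of one was subtracted from that of the other within each sample, and light was set against dark by an exact permutation test, two-sided, over the 924 ways to split the 12 samples, adjusted over the 6 pairs. This counts every sample as independent, which the correlation of consecutive numbers over all probes makes doubtful. It also ignores that equally numbered light and dark samples deviated together, at correlations of 0.41 to 0.65 over all probes. With consecutive numbers averaged, 3 values against 3 cannot give a p below 0.10.

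The neighbours GH9B11 and GH9B12 differed: the normalized change of GH9B11 was more negative by -0.64 ± 0.19 (log2 ± SE), in the same direction in 6 of 6 equally numbered samples (exact permutation test, p = 0.00433, adjusted p = 0.0260). The log2 value of GH9B11 minus that of GH9B12 averaged 1.09 ± 0.227 in light and 1.73 ± 0.415 in the dark (SD, n = 6 each), of which only the change between groups can be read, since the probes may differ in sensitivity. A factor common to an array cancels in such a difference, so the values as deposited and with centred arrays both give -0.64 (exact permutation test, adjusted p = 0.0130), and cyclic loess, which can move it, gave -0.73 (exact permutation test, adjusted p = 0.0130). With the sample number as a block, 6 of 6 differences of the same sign gave the smallest p that an exact test over 64 sign changes allows, 0.0312, and an adjusted p of 0.0938, so the call is limited there by the test. The call was lost when number 1, 3, 5 or 6 was left out (exact permutation test, adjusted p = 0.0952 each). Its size without a single number ranged from -0.71 to -0.51.

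The estimated change of GH9B8 was more negative than those of GH9B16 and GH9B12, but the differences did not pass the threshold after adjustment. It differed from that of GH9B16 by -0.60 ± 0.21 (log2 ± SE, exact permutation test, adjusted p = 0.0714) and from that of GH9B12 by -1.06 ± 0.42 (log2 ± SE, exact permutation test, adjusted p = 0.0779), each more negative in 5 of 6 equally numbered samples. Number 4, where GH9B8 was low in the dark, was the exception for both. Without number 4 the difference from GH9B16 was -0.79 (exact permutation test, adjusted p = 0.0238), and as deposited it was -0.62 (exact permutation test, adjusted p = 0.0455). Without any other single number it was not called (exact permutation test, adjusted p from 0.111 to 0.238). With the floor at the 10th percentile it shrank to -0.28 (exact permutation test, adjusted p = 0.256), and the difference from GH9B12 to -0.75 (exact permutation test, adjusted p = 0.130).

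No difference in response was detected for the other 3 pairs. GH9B8 against GH9B11 gave -0.42 ± 0.30, GH9B11 against GH9B16 gave -0.19 ± 0.20, and GH9B12 against GH9B16 gave 0.45 ± 0.34 (log2 ± SE, exact permutation test, adjusted p = 0.255, 0.387 and 0.255). These errors leave room for sizeable differences, so the pairs are not shown to respond alike. GH9B12 was above GH9B16 in its change in 6 of 6 equally numbered samples. With the sample number as a block this pair had an adjusted p of 0.0938 (exact test over 64 sign changes), the same as GH9B11 and GH9B12. The pairs of GH9B8 with GH9B12 and with GH9B16 also had that value. By adjusted p the block thus does not set GH9B11 and GH9B12 apart from these pairs. Before adjustment the 2 pairs with GH9B8 cannot reach the smallest p of the test, since only 5 of 6 differences had the same sign. For them the equal value comes from the adjustment.

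**Figure D3:**
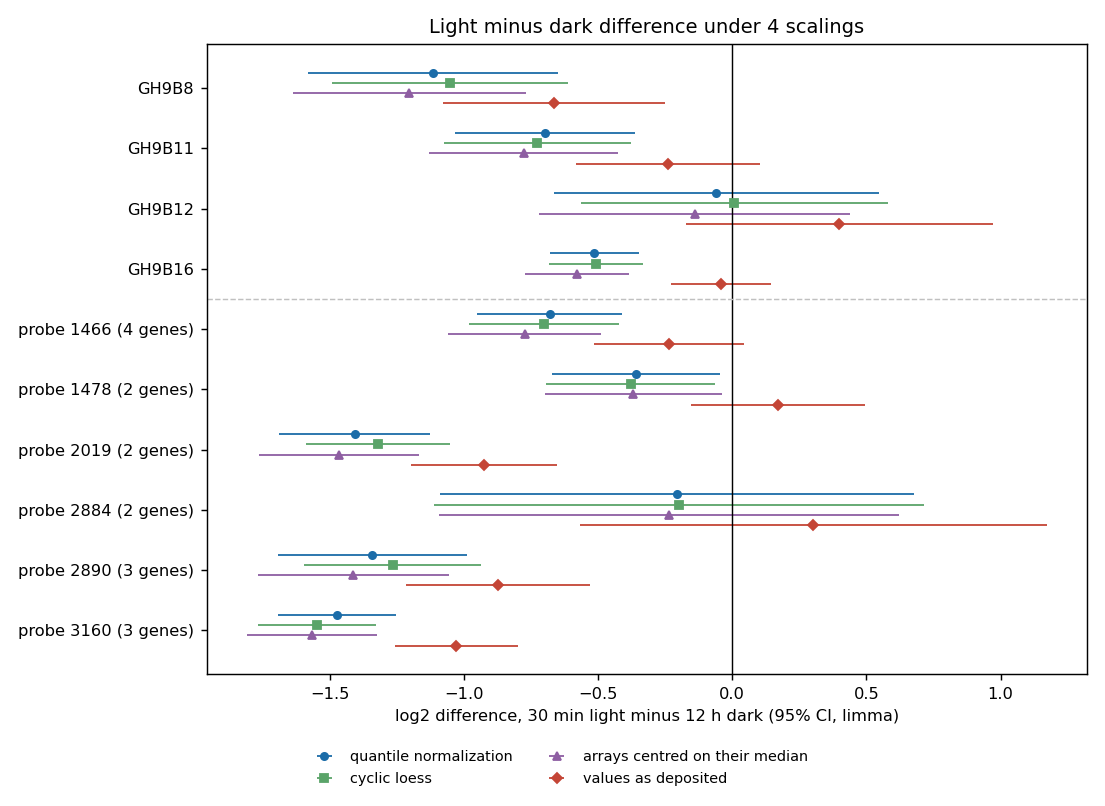
Light minus dark log2 differences with 95% confidence intervals (limma, 6 samples a group) for the 4 genes, above the dashed line, and for the 6 probes that list several genes, below it, under 4 scalings. As deposited (red) the intervals of GH9B11, GH9B12 and GH9B16 include 0, and under the 3 scalings that align the arrays only that of GH9B12 does among the 4 genes. Probes 2019, 2890 and 3160 lie below 0 under all 4 scalings.

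The 6 probes that list several genes give a wider view of the family, although their signal cannot be assigned to a gene. After normalization 4 of them were called lower and 0 higher, beside the 29% and 23.6% of all probes, and as deposited 3 were lower and 0 higher, beside 13.9% and 49.9% of all probes. With the sample number as a block 5 were lower and 0 higher, beside 32.1% and 28.1% of all probes, and with cyclic loess 5 and 0, beside 27.4% and 24.8%. Probe 3160, which lists GH9B16 and 2 of its relatives, had a deposited intensity from 0.343 to 0.485 in light, against 0.769 to 0.973 in the dark. Its log2 difference was -1.47 ± 0.10 (SE) after normalization (limma adjusted p = 1.52e-07) and -1.03 ± 0.11 as deposited (limma adjusted p = 2.65e-06). The probe of GH9B16 alone stood at -0.51 and -0.041 on the same scales, so both probes that list this gene disagree in size, and as deposited in call.

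Probe 1466 lists GH9B11 and GH9B12 together with 2 neighbours. It was close to the probe of GH9B11 alone, at -0.68 ± 0.12 after normalization (log2 ± SE, limma adjusted p = 0.000527) and -0.23 as deposited (limma adjusted p = 0.127). Probes 2019 and 2884 list the same 2 genes of the family and gave unlike values: -1.41 ± 0.13 for probe 2019 (log2 ± SE, limma adjusted p = 1.72e-06) and -0.21 ± 0.41 for probe 2884 (log2 ± SE, limma adjusted p = 0.694). Probe 2884 had the widest spread of the 6, from 0.130 to 0.643 in light and from 0.0722 to 0.586 in the dark as deposited. The lowest value of either group was that of number 1, at the floor in both. Without number 1 the log2 difference of probe 2884 was -0.27 ± 0.16 (SE) and still not called (limma adjusted p = 0.172). The difference between probes 2019 and 2884 was not tested. Probe 2890 was lower in light at -1.34 ± 0.16 (log2 ± SE, limma adjusted p = 1.82e-05), and probe 1478 was not called at -0.36 ± 0.14 (log2 ± SE, limma adjusted p = 0.0526). The block by sample number made it a call, lower in light (limma adjusted p = 0.00298), as did cyclic loess (limma adjusted p = 0.0441), and it stood at 0.17 as deposited (limma adjusted p = 0.337).

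Within a group, GH9B11 and GH9B12 varied together from sample to sample. As deposited both averaged highest in numbers 1 and 2 and lowest in numbers 5 and 6, in light and in the dark. After normalization their deviations from the group means correlated at 0.82 (Pearson's r over 12 samples, which share arrays and, by number, their deviations). Their probe numbers, 1490 and 1502, lie 12 apart. Over the 1911 pairs of probes that lie 12 apart and were never at the floor, the median correlation of deviations was 0.31, and 5.6% of them reached that of GH9B11 and GH9B12. The pair of GH9B11 and GH9B12 is not among these, since GH9B12 was at the floor in dark sample 5. At a distance of 500 the median was 0.02. The part of this nearness in the shared pattern of GH9B11 and GH9B12 was not tested. GH9B16 deviated the other way, at -0.56 with GH9B11 and -0.59 with GH9B12, and GH9B8 at -0.15 and -0.25, while GH9B8 and GH9B16 stood at 0.44.

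**Figure D4:**
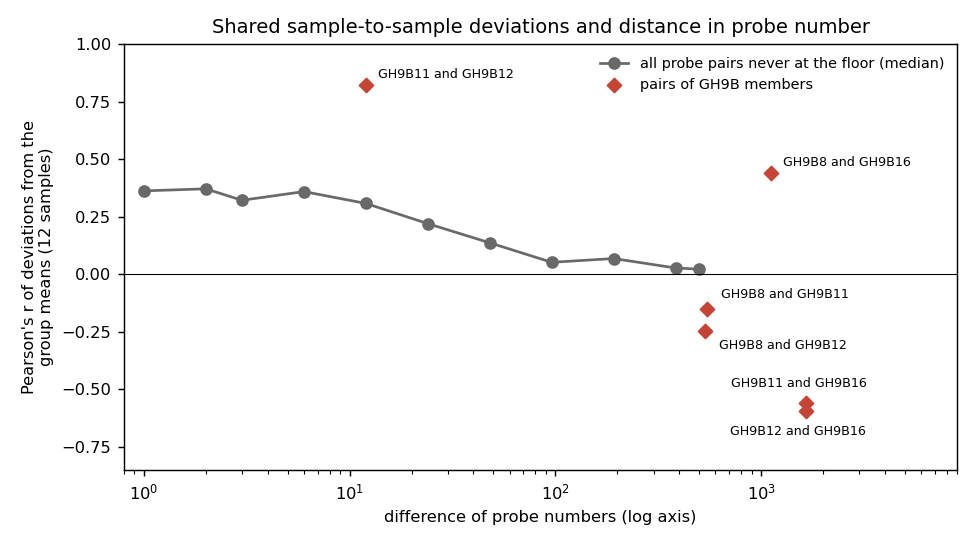
Pearson's r of the deviations from the group means over 12 samples, against the difference of the probe numbers on a log axis. Grey points give the median over all probe pairs never at the floor, which is 0.36 for adjacent numbers and 0.02 at a distance of 500, and red diamonds give the 6 pairs of GH9B genes, of which GH9B11 and GH9B12 stand at 0.82. GH9B8 and GH9B12 were each at the floor in 1 sample, so pairs with them are not among the grey ones.

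Likeness of pattern was described by Pearson's r over the 12 normalized values, which include the difference between light and dark, among 635 other probes that name 1 gene and were off the floor in at least 7 samples. The closest genes were AT4G33480 to GH9B8 (r = 0.93), AT4G26770 to GH9B11 (r = 0.96), SAP (AT5G35770) to GH9B12 (r = 0.86) and AT4G30740 to GH9B16 (r = 0.98). For GH9B8 AT4G32340 and LPA19, a factor of photosystem II assembly, followed at 0.90 each. For GH9B11 AT5G38310 and AT4G14050 followed at 0.96 and 0.95, for GH9B12 AT4G25290 and AT5G40470 at 0.84 and 0.83, and for GH9B16 AT4G35980 and TPP2, a large peptidase, at 0.97 and 0.96. A gene close to a called gene on this measure shares the direction of its difference between light and dark by the choice of measure. The size need not be shared: AT4G30740 had a normalized log2 difference of -1.88, and GH9B16 of -0.51.

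Of the other cell wall genes sought, which covered cellulose synthases, expansins, xyloglucan and pectin enzymes, 1 had a probe of its own. CSLA01 (AT4G16590), of the cellulose synthase-like family whose A members make mannan, had 0.457 ± 0.0736 in light and 0.431 ± 0.0587 in the dark (deposited intensity, SD, n = 6 each). Its normalized difference was -0.45 ± 0.13 (log2 ± SE, limma adjusted p = 0.00921), whereas it stood at 0.081 as deposited (limma adjusted p = 0.598), so its direction also depends on the scaling. It was not called with consecutive numbers averaged (limma adjusted p = 0.0990) or without numbers 1 and 2 (limma adjusted p = 0.0551).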

How the data were processed

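The values deposited by the authors are hybridization intensities on a linear scale. How they were scanned, background-corrected and scaled, and how many plants or membranes a sample stands for, is not given in the sources used here. Depth and unit are therefore unknown, and the number of arrays limits the precision. Group and number (1 to 6) of each sample come from its title, and nothing says that they came from separate plants, so p-values measure a spread that may partly be technical.

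Quantile normalization, the floor and limma 3.58.1 (R 4.3.3; lmFit and eBayes, 6 against 6, no block, Benjamini-Hochberg over 3439 probes, adjusted p under 0.05) were applied to all probes, and exact permutation tests were run in SciPy 1.17.1. The fit and the permutation step were tested on simulated data. For 690 of the 692 single-gene probes the gene identifier was found in TAIR10.1, which supplied symbols and, by start positions, the neighbours. Equal numbers pair the samples by the check over all probes: deviations of equally numbered samples correlated at 0.41 to 0.65. The meaning of a number is not given in the labels.

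The 4 genes, the cell wall list, chosen by symbol, and the tests were chosen with earlier results of these data known. The genes named are the 4 members, for each the 3 of highest correlation, and the measured genes of the list. Alternatives concerned the scaling, the floor, a pseudocount of 0.1, dim probes, averaging of consecutive numbers, the block, an intensity trend and left-out samples. The distances between probe numbers were added after the data were seen.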

Additional observations from a re-analysis of the deposited data

How the results depend on the processing

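GH9B8 kept its direction and call under every alternative that tested it. It was not tested, nor was GH9B12, once probes below the 25th percentile of mean level were left out. As deposited, GH9B11 stood at -0.24 and GH9B16 at -0.041, neither called, and with consecutive numbers averaged GH9B11 was not called at -0.70 (limma adjusted p = 0.0516). GH9B12 turned to 0.40 as deposited and 0.0078 with cyclic loess, and CSLA01 to 0.081 as deposited, none of them called. Without 1 number or 1 set of consecutive numbers the log2 difference ranged from -1.31 to -0.99 for GH9B8, from -0.85 to -0.56 for GH9B11, from -0.13 to 0.0028 for GH9B12 and from -0.53 to -0.49 for GH9B16. The 3 falls stayed called in all of these fits.

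The change of GH9B11 differed from that of GH9B12 by -0.71 to -0.51 without 1 number, and by -0.69, -0.74 and -0.49 without numbers 1 and 2, 3 and 4, or 5 and 6, and the replicate block gave -0.64 (exact test, adjusted p = 0.0938, where its smallest p, 0.0312, was reached). The change of GH9B8 differed from that of GH9B16 by -0.62 as deposited, past the threshold (centring gives the same value, as it cancels within a sample), and by -0.79 to -0.51 without 1 number. With the floor at the 10th percentile, under which all light values of GH9B8 lay, its change differed by -0.28 from that of GH9B16, by -0.75 from that of GH9B12 and by -0.09 from that of GH9B11. None of these was called. With the replicate block the calls of the 4 genes did not change, and that of probe 1478 was gained. The block gave the adjusted p of 0.0938 (exact test) also for GH9B8 against GH9B12, GH9B8 against GH9B16 and GH9B12 against GH9B16.

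Over all probes 1807 were called, 811 higher and 996 lower. As deposited 1715 were higher and 479 lower, where the median of all probes was higher in light. With consecutive numbers averaged 1199 were called, 520 higher and 679 lower, with fewer samples. No measure of background accompanies the values, so what depth limits cannot be stated.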

Other observations

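In none of the 8 groups of 6 normalized values examined, 4 genes in light and in the dark, did a single sample stand far from the other 5 by Dixon's criterion.

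The light minus dark differences of neighbouring probe numbers also resembled each other. Across pairs of probes 12 apart, the normalized log2 differences correlated at 0.24, and at a distance of 500 at -0.01 (Pearson's r across 2835 and 2221 pairs of probes, which share arrays and are not independent replicates). Probes 1466, 1478, 1490 and 1502, which list neighbouring GH9B genes, follow each other in steps of 12, as do probes 3148 and 3160. The deviations of GH9B11 from its group means correlated at 0.77 with those of probe 1466 and at 0.82 with those of probe 1478, whereas those of GH9B16 correlated at -0.08 with those of probe 3160. What the probe numbers stand for on the array is not given in the sources used here, and the part of nearness in the values of the GH9B genes was not tested.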
